A study of Mus musculus with 4 samples.

Results

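The classical protein tyrosine phosphatases are the genes that the array annotation names Ptpn or Ptpr, leaving out Ptprcap, whose product is not a phosphatase. There were 38 such genes among the 28149 genes on the array, 17 of the cytosolic type and 21 of the receptor type, and 83 of the 41174 probes were theirs. Each gene was read from its probe with the highest mean signal over the arrays. Both groups came from male C57BL/6 mice, with 2 wild-type and 2 miR-223 knockout samples. The labels do not give the knockout allele, the age of the mice or whether replicates came from separate animals. P-values therefore measure only the spread between these samples, which may be technical. In both groups GM-CSF, a growth factor for granulocytes and macrophages, was given at 40 ng/ml to bone marrow cells for 4 days, and immature, still expanding granulocytes were then sorted. The gate of the sort is not described. RNA of each sample was hybridised to 1 Agilent array with Cy3 as the only dye, all 4 on 1 slide. The comparison asks which transcripts differ in such cells when miR-223 is missing.

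Protein tyrosine phosphatases remove phosphate from tyrosine and so oppose tyrosine kinases. The GM-CSF receptor has no kinase of its own and signals through Jak2, Stat5 and Src family kinases, which several of these phosphatases act upon. Some, such as CD45, switch Src family kinases on by removing the phosphate of their inhibitory tail, while others, such as SHP-1, dampen signals from receptors that carry inhibitory motifs. Cytosolic members differ in the domains that bring them to their substrates. Receptor members span the membrane, and many have extracellular parts like those of adhesion molecules.

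MiR-223 is a myeloid microRNA that represses messenger RNAs carrying a match to its seed, bases 2 to 8 of the mature strand. The mature sequences are shown because their loss defines the knockout group. They are from RefSeq (GRCm38.p6, plus strand of chromosome X), with the seed in capitals. The 5p strand lies at chrX:96242842-96242864 and the 3p strand at chrX:96242884-96242905.
miR-223-5p: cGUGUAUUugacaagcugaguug
miR-223-3p: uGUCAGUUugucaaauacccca
The 7-base match to the 3p seed, AACTGAC, was in 0 of the 83 probes of the phosphatase genes and in 153 of all 41174 probes (0.372%). The probes are 60 bases long and most of each transcript lies outside them, so this count says nothing about sites elsewhere in these messenger RNAs. MiR-223 itself was not analysed here, and no value in this report checks the knockout label.

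A gene was tested when at least 1 genotype had both of its arrays well above background at the chosen probe. This held for 25 of the 38 genes (65.8%), against 16583 of all 28149 genes (58.9%). Of the cytosolic genes 13 of 17 were measured (76.5%), and of the receptor genes 12 of 21 (57.1%). For 24 of the 25, the chosen probe was well above background on all 4 arrays. The exception was Ptprk, measured on both knockout arrays and 1 of 2 wild-type arrays.

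**Figure D1:**
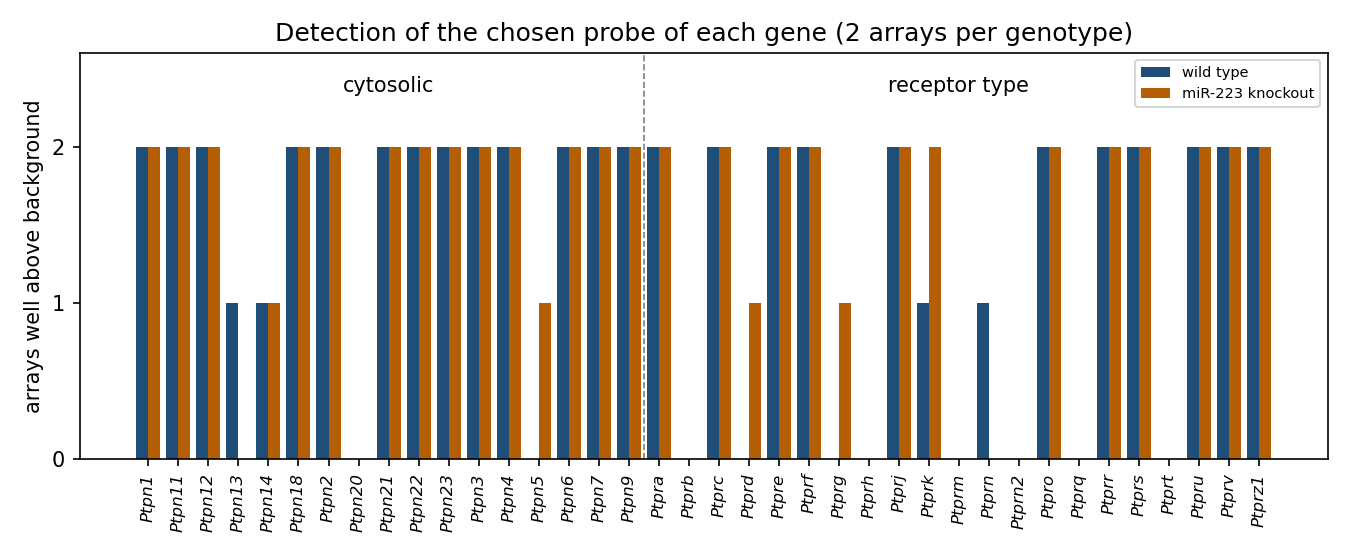
Number of arrays, out of 2 per genotype, on which the chosen probe of each of the 38 genes was well above background, for wild type (blue bars) and miR-223 knockout (orange bars). Cytosolic genes are left of the dashed line and receptor genes right of it; 24 genes reached 2 arrays in both genotypes, and genes with no bar stayed under that mark throughout.

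The 13 genes that were not tested include several known from other tissues. For 7 of them no probe was well above background on any array: Ptpn20, Ptprb of endothelial cells, Ptprh, Ptprm, Ptprn2 of secretory vesicles, Ptprq of the inner ear, and Ptprt. For the other 6 the chosen probe passed on 1 or 2 arrays without filling a group: Ptpn5, a neuronal phosphatase, Ptpn13, Ptpn14, Ptprd, Ptprg and Ptprn. Ptpn13 had another probe well above background on 3 arrays. No difference is given for these genes.

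Levels below are log2 signals relative to the 75th percentile of the array, so that 0 is that percentile. Differences are knockout minus wild type on the log2 scale, with the standard error (SE) of limma's moderated fit and n = 2 arrays per genotype. Levels of different probes are not compared, since probes differ in brightness. No phosphatase gene passed limma's test at a Benjamini-Hochberg adjusted p of 0.05, in either direction, and neither did any of the 16583 genes tested (0% called). At an unadjusted p under 0.05, 1 phosphatase gene was higher in the knockout, where 8.03% of all genes were, and 2 were lower, where 5.55% were. Ptpn1 was the higher one, and Ptpro and Ptprf were the lower ones. The shares of phosphatase genes were near those of all genes. The median SE over all genes tested was 0.156, so with 2 arrays per genotype most of the differences below are not distinguishable from replicate spread.

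Ptpro, a receptor phosphatase with fibronectin repeats known from kidney podocytes and from macrophages, had the largest difference among the 25 genes. Its level was 0.27 and 0.90 in wild type against -0.14 and -0.28 in knockout. Both knockout values were under both wild-type values, and the wild-type pair lay farther apart than the knockout pair. The difference was -0.80 ± 0.25 (SE), or 1.74-fold lower, with an unadjusted p of 0.0274 and an adjusted p of 0.322 (limma). It was -0.48 without wild-type array 2 and -1.11 without wild-type array 1. The chosen probe lies at chr6:137411520-137411579 (mm9, plus strand). A second measured probe had a difference of -0.75. It is shown because its 60 bases map over 856 bases of the genome and so cross a splice junction, which a probe within 1 exon does not. It reads spliced Ptpro RNA at chr6:137391209-137392064 (mm9, plus strand), with no part set in capitals.
Ptpro junction probe: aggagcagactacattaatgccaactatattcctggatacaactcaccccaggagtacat
Its levels were -4.46 and -3.95 in wild type against -4.90 and -5.02 in knockout, again with no overlap. The remaining Ptpro probe was near background throughout.

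The type IIa receptors bind proteoglycans of the cell surface and matrix, and both measured members lay lower in the knockout. Ptprf (LAR) stood at -2.38 and -2.30 in wild type and at -2.72 in each knockout sample. The groups did not overlap and each was tight. Its difference was -0.38 ± 0.12, or 1.30-fold lower (limma, unadjusted p = 0.0291, adjusted p = 0.324). The other Ptprf probes differed by -0.79 and -1.41, the latter well above background on 1 of 2 knockout arrays. Ptprs, at 2.84 and 3.31 in wild type and 2.73 and 2.43 in knockout, differed by -0.50 ± 0.22 (limma, unadjusted p = 0.0813, adjusted p = 0.423). Its groups were apart too, though the gap between them was smaller than the spread within either. The difference was -0.26 without wild-type array 2 and -0.73 without wild-type array 1. Its second probe differed by -0.65. Ptprd, the remaining type IIa gene, was not tested.

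Among the type IIb receptors, which bind their own kind on neighbouring cells, Ptpru stood at -2.75 and -2.92 in wild type and at -3.06 and -3.28 in knockout. The groups did not overlap, and the difference was -0.34 ± 0.15 with an adjusted p of 0.421 in limma. Ptprk overlapped between genotypes and differed by -0.31 ± 0.36.

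The other measured receptors with fibronectin repeats had smaller differences than Ptpro. Ptprj (CD148), which acts on Src family kinases in blood cells, stood at 0.95 and 1.12 in wild type and at 0.90 and 0.94 in knockout. The knockout arrays lay just below the wild-type arrays, with a difference of -0.12 ± 0.13. A second Ptprj probe differed by -0.19. Ptprv lay on the other side, at -1.96 and -2.24 in wild type against -1.84 and -1.94 in knockout, a difference of 0.21 ± 0.15.

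CD45 and the receptors with short extracellular parts, all of which act on Src family kinases, overlapped between genotypes on their chosen probes. Ptprc, the gene of CD45 found on all nucleated blood cells, stood at 4.73 and 4.96 in wild type and at 4.92 and 5.00 in knockout. The difference was 0.11 ± 0.14, and its 3 other measured probes differed by 0.07, 0.33 and 0.47, the latter pair with groups apart. Ptpra stood at 4.11 and 3.92 in wild type and 4.24 and 4.10 in knockout, a difference of 0.15 ± 0.14. Ptpre had 4.69 and 5.02 in wild type and 4.96 and 5.00 in knockout, a difference of 0.13 ± 0.16. For Ptpre the lowest value was that of wild-type array 1, and without that array the difference was -0.04. A second Ptpre probe differed by 0.36 and its groups were apart. Ptprr, a receptor relative of the kinase-binding Ptpn7, differed by 0.02 ± 0.24.

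Ptprz1, a brain receptor phosphatase, gave probes that disagree. The chosen probe stood at 9.75 and 9.92 in wild type and at 9.68 and 10.03 in knockout, a difference of 0.03 ± 0.18. The other 3 probes were well above background on 1, 3 and 0 of the 4 arrays, and that on 3 arrays differed by 1.18. The chosen probe is annotated to the sequence record AJ428208, not to the gene's RefSeq transcript. It is shown with the nearest probe of the RefSeq transcript, the one above background on 0 arrays, since both lie on the plus strand of the same stretch (mm9, chr6:22951569-22951628 and chr6:22951891-22951950). No part is set in capitals.
Ptprz1 chosen probe: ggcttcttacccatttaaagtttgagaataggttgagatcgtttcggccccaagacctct
Ptprz1 neighbouring probe: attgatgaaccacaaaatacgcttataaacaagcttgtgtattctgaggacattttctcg
The high level of the chosen probe is therefore not given here as a level of Ptprz1 messenger RNA. The receptor median and counts below are given with and without it, and without it 11 of 20 receptor genes were measured.

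Among the cytosolic genes, PTP1B and TC-PTP are close relatives that dephosphorylate Janus kinases. Ptpn1, the gene of PTP1B, stood at 6.61 and 6.63 in wild type and at 6.96 and 7.04 in knockout. Replicates lay within 0.08 of each other and the groups were clearly apart. Its difference was 0.38 ± 0.12, or 1.30-fold higher (limma, unadjusted p = 0.0301, adjusted p = 0.326). The chosen probe lies at chr2:167802296-167802355 (mm9, plus strand), and a second probe at chr2:167804295-167804354 differed by 0.28 with groups also apart. Ptpn2, the gene of TC-PTP, stood at 3.79 and 3.60 in wild type and 3.75 and 3.78 in knockout. Those groups overlapped, with a difference of 0.07 ± 0.13. A second Ptpn2 probe stood at -2.56 and -2.52 in wild type and at -2.28 and -2.11 in knockout. It differed by 0.34 with groups apart.

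The PEST-type phosphatases bind Csk, which restrains Src family kinases, or adaptor proteins of the cytoskeleton. Ptpn22, the Csk partner, stood at 1.71 and 1.69 in wild type and at 1.95 and 1.85 in knockout. The groups did not overlap, and the difference was 0.20 ± 0.12 with an adjusted p of 0.527 in limma. Ptpn18 also had groups apart, at 5.85 and 5.92 in wild type and 6.13 and 6.02 in knockout, a difference of 0.19 ± 0.12. Both genes have 1 measured probe. Ptpn12 (PTP-PEST) overlapped on the chosen probe, at 1.46 and 1.47 in wild type against 1.44 and 1.59 in knockout. Its second probe, which shares bases with the first, differed by -0.28 with groups apart, against 0.05 ± 0.13 for the first.

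The SH2-domain phosphatases differed little between genotypes. SHP-1, encoded by Ptpn6, restrains signalling in myeloid cells. Ptpn6 stood at 5.35 and 5.41 in wild type and at 5.42 and 5.56 in knockout, a difference of 0.11 ± 0.13 in which the groups were barely apart. Its other probes differed by 0.34 and 0.03, the former well above background on 1 of 2 wild-type arrays. SHP-2, encoded by Ptpn11, carries growth factor signals to Ras. Ptpn11 stood at 4.71 and 4.87 in wild type and at 4.84 and 4.87 in knockout, a difference of 0.06 ± 0.13, with 0.03 and -0.02 on its other probes.

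The remaining cytosolic genes had differences between -0.23 and 0.29. In Ptpn7, which dephosphorylates ERK and p38, the groups were apart with the knockout lower, at a difference of -0.17 ± 0.12, but a second probe differed by 0.06. Of the FERM-domain genes, which bind membrane proteins, Ptpn4 lay lower by -0.23 ± 0.14 with groups apart. Ptpn3 and Ptpn21 overlapped, at 0.29 ± 0.34 and 0.03 ± 0.18. Ptpn23, of endosomal sorting, differed by 0.11 ± 0.13 with groups apart, and Ptpn9 by 0.03 ± 0.14 with groups overlapping.

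**Figure D2:**
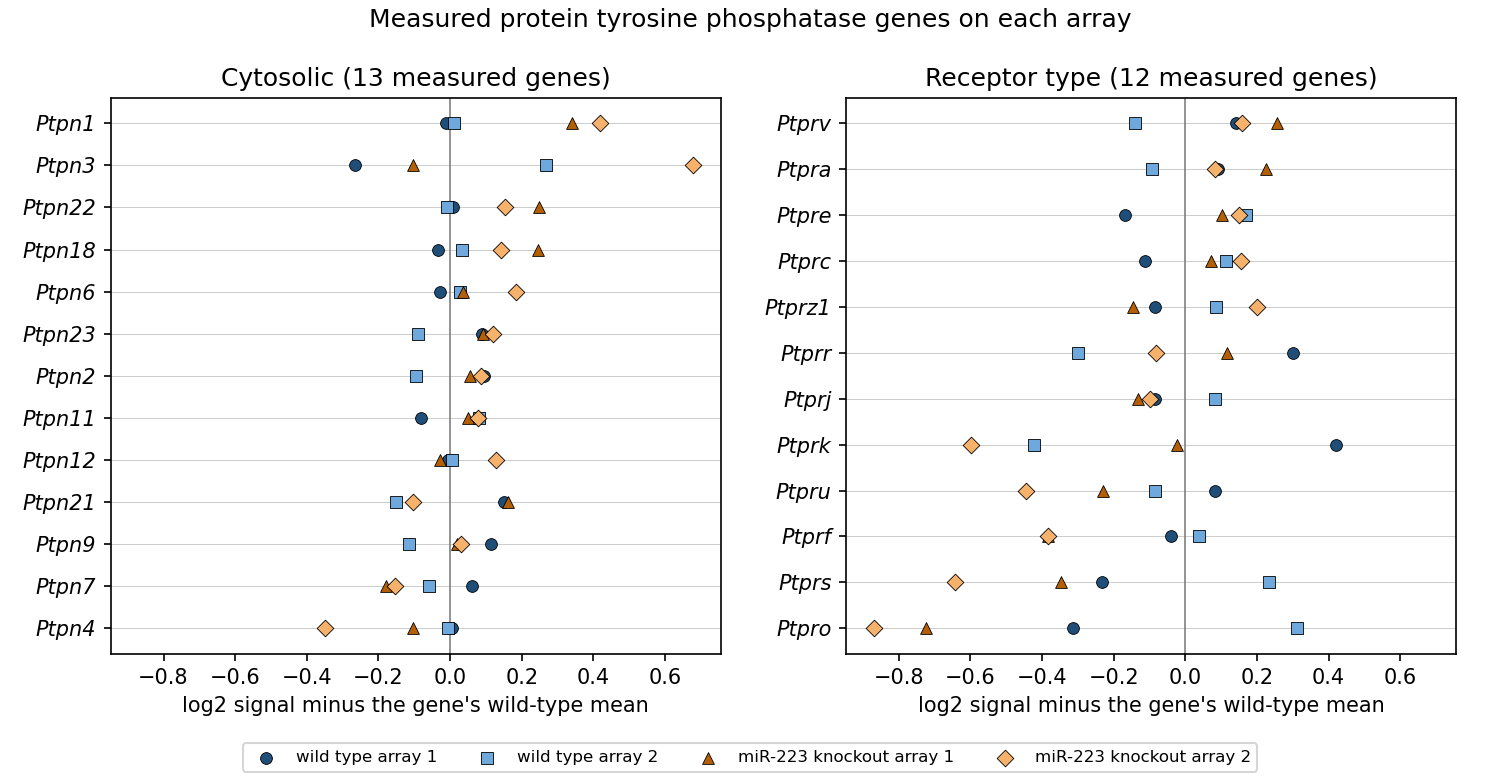
Log2 signal on each array minus the gene's wild-type mean, for the 13 measured cytosolic genes (left) and the 12 measured receptor genes (right), 1 point per array and genes ordered by their difference. Ptpn1 on the left has both knockout points right of both wild-type points, and Ptpro, Ptprf, Ptprs and Ptpru on the right have both of them left of the wild-type points, by least in Ptprs and Ptpru. In most other rows the genotypes lie close together or overlap.

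Both knockout values exceeded both wild-type values in 6 of the 25 measured genes, and in 28% of all genes tested. Of these, 5 were cytosolic (Ptpn1, Ptpn6, Ptpn18, Ptpn22 and Ptpn23) and 1 was a receptor (Ptprv). Both were under them in 7 genes, and in 20.1% of all genes. Here 2 were cytosolic (Ptpn4 and Ptpn7) and 5 were receptors (Ptprf, Ptprj, Ptpro, Ptprs and Ptpru). In all, 13 of 25 genes had groups apart, against 48.1% of genes tested, which is near the background. Without regard to overlap, the difference was above 0 in 11 of 13 cytosolic and 6 of 12 receptor genes (5 of 11 without Ptprz1), where 54.8% of all genes lay above 0. It was below 0 in the other 8 of the 25, 2 cytosolic and 6 receptor genes, against 45.2% of all genes.

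The median difference was 0.07 over the 13 cytosolic genes and -0.05 over the 12 receptor genes, beside 0.03 over all genes tested. The gap between these medians, receptor minus cytosolic, was -0.12. By array, the cytosolic median relative to the wild-type means was 0.05 and 0.12 in the knockouts, and the receptor median was -0.08 and -0.09. Wild-type array 1 had a receptor median of -0.06, near those of the knockouts, and wild-type array 2 had 0.06. Without Ptprz1 the receptor median was -0.12. By array it was then -0.02 and -0.10 in the knockouts and -0.04 and 0.04 in wild type, so that knockout array 1 lay between the wild-type arrays. With Ptprz1 kept in, the receptor median was 0.02 under the stricter demand of all 4 arrays well above background, which removes Ptprk. The cytosolic median was 0.14 without wild-type array 1, 0.02 without wild-type array 2 and 0.12 without knockout array 1, and the gap was -0.07 without knockout array 2. No test was made of either median or of the gap.

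In 14 of the 25 measured genes at least 1 other probe was measured. Of these 19 other probes, 16 differed in the same direction as the chosen probe. Among these 16, probes of Ptpn6 (0.34), Ptprz1 (1.18) and Ptprf (-1.41) were well above background on 1 of 2 arrays of 1 genotype. They entered through the other genotype, the one in which they were higher, so the filter favours their direction. All other measured probes shared the direction of the chosen probe in 11 genes, Ptprz1 among them through that probe alone. Among the 7 genes with groups apart and another measured probe, this was so for 6, Ptpn7 being the exception.

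**Figure D3:**
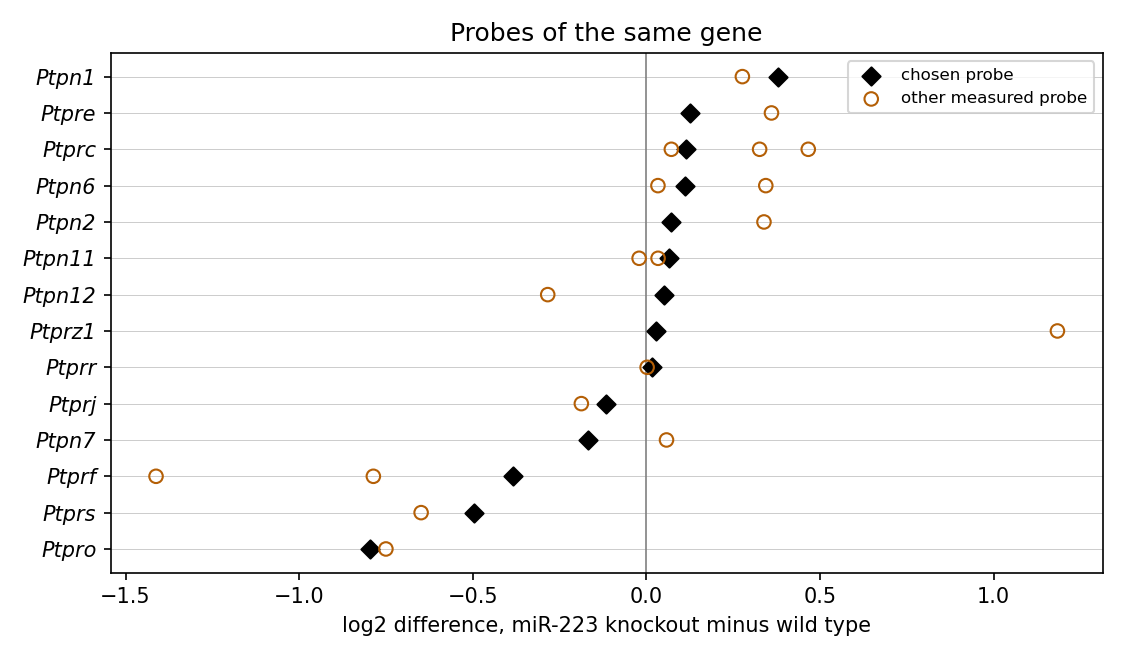
Log2 difference, knockout minus wild type, of the chosen probe (diamonds) and of each other measured probe (circles) for the 14 genes with more than 1 measured probe. Probes of Ptpro, Ptprf and Ptprs all lie left of 0 and those of Ptpn1 and Ptprc all lie right of it, whereas those of Ptpn7, Ptpn11 and Ptpn12 lie on both sides and those of Ptprz1 lie far apart.

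Each difference was recomputed under 14 alternatives, of which 4 (both other filters, the naming and the replicate block) leave every gene's difference as it is. Under the 10 that could alter it, 14 of the 25 genes kept their direction, among them Ptpn1, Ptpn6, Ptpn18, Ptpn22, Ptprc, Ptpra, Ptprj, Ptpro, Ptprf, Ptprs and Ptpru. In the other 11 it changed at least once. For a gene with groups apart, leaving out 1 array cannot change the direction. That holds for every gene named here except Ptprc and Ptpra. For the 5 genes with 1 probe, the mean of all probes cannot alter the difference either. The lowest adjusted p of any phosphatase gene under any alternative was that of Ptpro in limma without wild-type array 1, at 0.0925, and over the other alternatives that of Ptpro ranged up to 0.833.

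**Figure D4:**
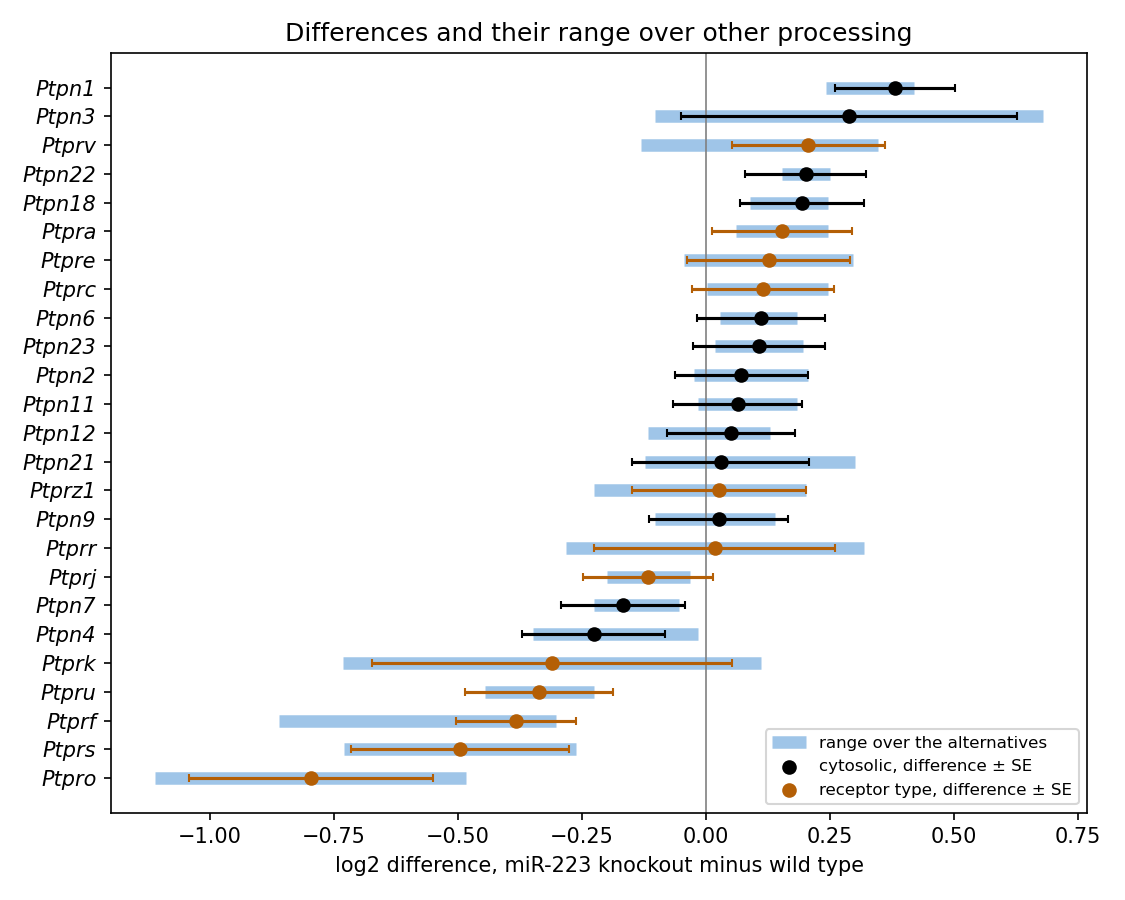
Log2 difference, knockout minus wild type, of the 25 measured genes as points with limma's SE (n = 2 arrays per genotype), black for cytosolic and orange for receptor genes, over bars that span the lowest and highest value under the alternatives. The bars of Ptpro, Ptprf, Ptprs and Ptpru stay below 0 and that of Ptpn1 stays above 0, while those of Ptpn3, Ptprk, Ptprr and Ptprz1 cross 0.

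No gene among the partners and substrates of these phosphatases passed limma's adjusted threshold either. Of 10 Src family kinase genes with Csk and its anchor, 8 were measured, 5 above 0 and 3 below. Pag1, the membrane anchor of Csk, differed by 0.56 ± 0.20 and Src by -0.54 ± 0.16, both with unadjusted p under 0.05 in limma. Fyn differed by -0.49 ± 0.29. All 6 Janus kinase and Stat5 genes were measured, 5 above 0, with differences from -0.16 for Jak2 to 0.26 for Jak1. Of 12 genes listed as docking proteins of SHP-2, 10 were measured. Groups were apart in 7, of which 6, Gab2 among them, were higher in the knockout. Over all genes tested, 48.1% were apart and 28% were apart with the knockout higher. Dok3 differed by 0.28 ± 0.13, Gab3 by 0.46 ± 0.25 and Sos1 by 0.20 ± 0.13. Gab2 was well above background on 1 of 2 wild-type arrays and entered the test only through the knockout, the group in which it was higher. The filter therefore favours its place among the 6, and its values are given with no fold or p. They were -5.28 and -6.18 in wild type and -4.08 and -4.77 in knockout.

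The genes listed as receptors with inhibitory motifs, which can recruit SHP-1 and SHP-2, included some of the larger differences. Recruitment by the listed receptors was not measured. Of 20 such genes 18 were measured, 13 above 0 and 5 below, with a median of 0.17, where 54.8% of all genes lay above 0. Groups were apart in 9 upward and 3 downward, beside 28% and 20.1% of all genes. Cd33 differed by 0.74 ± 0.14 (limma, unadjusted p = 0.00474, adjusted p = 0.248). Siglecg and Siglece, further members of the sialic acid binding Siglec family, differed by 0.96 ± 0.22 and 0.98 ± 0.28. Cd22, a Siglec known from B cells, differed by -0.91 ± 0.25. Tyrosine phosphatases of other families were even, with 6 of 12 measured genes above 0 and a median of 0.00. Those named by smallest p were Ubash3b at 0.31 ± 0.16, Cdc25b at 0.36 ± 0.20 and Cdc25a at -0.33 ± 0.19.

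Markers of cell types differed with genotype beside these values, though none passed limma's adjusted threshold and not every list differed. Of 16 granulocyte markers 14 had a probe under that name and all 14 were measured, 12 of them above 0 with a median of 0.21. Over all genes tested, 54.8% lay above 0. Groups were apart in 5 of the 14 upward and in 1 downward, beside 28% and 20.1% of all genes. The summed intensity of the 14 markers, in units of the 75th percentile of the array, was 3787 and 4016 in wild type and 4147 and 4597 in knockout. All 16 macrophage and monocyte markers were measured. In 11 of them the knockout pair was under the wild-type pair, in 2 it was over it, and the median was -1.09. Over all genes tested these shares were 20.1% and 28%. The summed intensity of the 16 markers was 61.2 and 72.0 in wild type and 61.0 and 63.8 in knockout. Mertk, a receptor for dying cells on macrophages, had the largest difference, -2.04 ± 0.21. The 2 markers with the knockout pair higher were Emr1, at 0.75 ± 0.24, and Fcgr1, at 0.19 ± 0.12. Of 12 mast cell and basophil markers 10 were measured, with a median of -1.41. Of these 10, 9 were lower with groups apart, against 20.1% of all genes tested. The sums of the measured markers were 64.9 and 72.7 in wild type and 46.5 and 24.5 in knockout. The mast cell tryptases Tpsb2 and Tpsab1 were above background on no array.

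Of 7 megakaryocyte and platelet markers 6 were measured, with a median of -0.45. Groups were apart in 3 downward and 2 upward, beside 20.1% and 28% of all genes tested. Itga2b, the platelet integrin, differed by -1.64 ± 0.39 (limma, unadjusted p = 0.0115, adjusted p = 0.271). The sums of the 6 markers were 5.39 and 11.3 in wild type and 3.29 and 3.92 in knockout. None of the 6 measured eosinophil markers had groups apart, where 48.1% of all genes tested did. The eosinophil sums differed most between the wild-type arrays, at 14.2 and 69.4, with both knockout arrays between these. Dendritic cell and MHC class II markers had a median of -0.25 over 11 genes, with sums of 176 and 190 in wild type and 186 and 125 in knockout. The B cell regulators Pax5 and Ebf1, the T cell gene Cd3g and the erythroid genes Klf1 and Alas2 were above background on no array. The lower values of Ptpro, Ptprf, Ptprs and Ptpru stand beside macrophage and mast cell markers that were mostly lower. The higher value of Ptpn1 stands beside granulocyte markers of which 12 of 14 lay above 0 but only 5 had groups apart upward. The part of these markers in the phosphatase differences was not tested. In RNA of whole sorted samples, fewer cells of a type and less RNA per cell cannot be told apart.

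**Figure D5:**
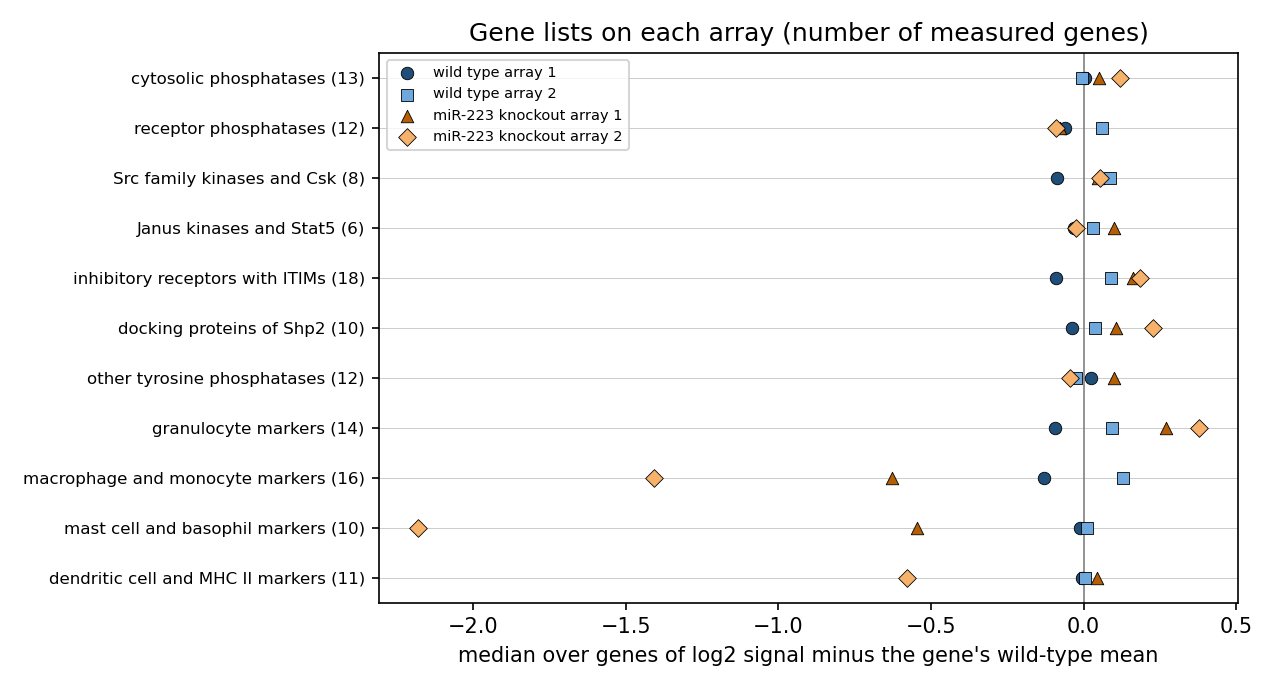
Median over the measured genes of each list of the log2 signal minus the gene's wild-type mean, 1 point per array, with the number of measured genes in brackets. The phosphatase lists lie between -0.09 and 0.12 on every array, while the macrophage and mast cell markers lie below on both knockout arrays, to -1.41 and -2.18 on knockout array 2.

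The promoters of the phosphatase genes were searched on both strands for 6 motifs of factors active in myeloid cells. RefSeq (GRCm38.p6) gave 46 promoters for 32 of the 38 genes, each from 250 bases before to 50 after the start. GAGGAAGT, the PU.1 type of motif, TTGCGCAA and TTGCGNAAT of C/EBP factors, the NF-kB motif in its common form, and TTCCCGGAA of Stat5 were in 0 of the 46. Among all 32851 promoters the shares were 3.20%, 0.183%, 0.161%, 0.155% and 0.350%. The looser Stat form TTCNNNGAA, which includes TTCCCGGAA, was in 5 of the 46 (10.9%), against 8.30% of all promoters. The matches are shown, in capitals, with 10 bases on each side, since Stat5 acts downstream of the GM-CSF receptor. Each is given 5′ to 3′ on the strand of its gene.
Ptpn22 (chr3:103860035-103860063, plus strand): tctgcctttcTTCTGGGAAtggaagaact
Ptpn23 (chr9:110408372-110408400, minus strand): gagatcactaTTCCCAGAAgccccttcac
Ptpre (chr7:135593274-135593302, plus strand): gtcaaaatgtTTCTCAGAAatgtcttaca
Ptprj (chr2:90479246-90479274, minus strand): accttcagtgTTCATGGAAggccctgctt
Ptprh (chr7:4604175-4604203, minus strand): atttctctcaTTCTTCGAAgcttgtttac
Of these genes Ptpn22 and Ptpn23 had groups apart upward, Ptprj had them apart downward, Ptpre overlapped and Ptprh was not tested. A match in letters is not a binding site.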

How the data were processed

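Per the file headers, the intensity of each spot was made by the authors with Agilent Feature Extraction 10.5.1.1, which removed local background and spatial trends and did not scale arrays to each other. Coordinates are those of the files (mm9). Authors' log2 values were also deposited; 99.8% of probes lay within 0.01 of the log2 intensity plus 1 constant per array, so their scale is that of the spots, centred on a common median, and how they were made is not given in the sources used here. They served as an alternative. On the arrays 57.6% to 63.5% of probes were well above background (the other column used, a deposited flag of 0 or 1), none was saturated, and the 75th percentile stood at an intensity of 486 to 586. The number of arrays limits the precision.

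Log2 intensity minus the 75th percentile of the array was compared with limma 3.58.1 in R 4.3.3 (lmFit, eBayes, two-sided), fitted over 16583 genes, each by its brightest probe, with adjustment over all of them. Of the chosen probes 34 of 38 matched RefSeq, and names are those of the files. Values per array are given for genes with an unadjusted p under 0.05 and for a fixed set of blood-cell members, others by difference, and up to 4 genes per related list by smallest p, of which some are not reported here; values of Ptprs, Ptpru, Ptprv, Ptpn18 and Ptprz1 per array were added after they were seen. The genes and lists were chosen with earlier results of these data known. Alternatives were another background correction, scaling, filter, probe rule and naming, each array left out, and the replicate number as a block. Replicate numbers were not taken as pairs: same-numbered arrays deviated together with a correlation of only 0.175 over 2 pairs.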

Additional observations from a re-analysis of the deposited data

Results flagged for a closer look

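A probe annotated to AK049403, a sequence described as Ptprm but carrying another gene name and so left out of the Ptprm values, was well above background on all 4 arrays, while neither probe named Ptprm was on any. Its mean level was -4.17 relative to the 75th percentile. It stood at -4.43 and -4.14 in wild type and at -4.06 and -4.04 in knockout, a difference of 0.24 with both knockout arrays above both wild-type arrays. It lies at chr17:67301993-67302052 (mm9). Another 6 probes described as phosphatase sequences under other names were above background on no array.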

How the results depend on the processing

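No phosphatase gene was called by limma under any alternative. Over all genes limma called 5 with normexp correction, 1 with median centring, 271 with spike-in scaling and 332 without wild-type array 1, and 0 otherwise. Genes with groups apart numbered 6 with spike-in scaling and 18 to 23 with 1 array left out, where a lone array cannot overlap its own replicate. That lone array is assumed to vary like the other group. With 1 array left out, the medians ranged from 0.018 to 0.14 (cytosolic), from -0.15 to -0.022 (receptor) and from -0.20 to -0.072 (receptor minus cytosolic). The receptor median was -0.089 with normexp, -0.10 with quantile normalization, -0.12 with no filter, 0.018 with genes above background on all arrays, -0.19 with the mean of all probes and -0.12 without Ptprz1. The gap was -0.18 with normexp, -0.18 with no filter, -0.053 with genes above background on all arrays, -0.32 with the mean of all probes and -0.19 without Ptprz1, a choice made after seeing the data. The cytosolic median was 0.034 with quantile normalization, 0.044 with spike-in scaling and 0.13 with the mean of all probes. The cause of these shifts was not tested.

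For genes with groups apart, leaving out 1 array cannot change the sign of the difference. Of 250 values of single genes under the 10 alternatives that can alter a gene's difference, 22 had the other sign, in 11 genes. These were Ptpn21 at -0.094 and Ptprr at -0.0088 with normexp, Ptprz1 at -0.089 with quantile normalization, and Ptpn9 at -0.0012 and Ptprr at -0.0087 with spike-in scaling. With the mean of all probes they were Ptpn12 at -0.12, Ptpn9 at -0.10, Ptprv at -0.13 and Ptprz1 at -0.23. With 1 array left out, differences ranged from -0.016 to 0.14 for Ptpn11, from -0.027 to 0.13 for Ptpn12, from -0.024 to 0.17 for Ptpn2, from -0.12 to 0.18 for Ptpn21, from -0.10 to 0.68 for Ptpn3, from -0.089 to 0.14 for Ptpn9, from -0.044 to 0.30 for Ptpre, from -0.73 to 0.11 for Ptprk, from -0.28 to 0.32 for Ptprr and from -0.15 to 0.20 for Ptprz1. With the replicate number as a block 0 phosphatase genes were called, 13 had groups apart and the medians were 0.07 and -0.05, as without the block; the numbers were not shown to pair the samples.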
